A study of Mus musculus with 30 samples.

Results

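Interferon-stimulated genes are genes whose transcription rises when a cell senses an interferon. The 9 examined here, Irf9, Stat2, Irf7, Ifit1, Ifit3, Isg15, Oasl2, Bst2 and Ifitm3, were chosen by name and are 9 of the 16995 genes in the table of the mouse cervical spinal cord after a stroke in the cortex. Their levels were followed in 29 animals in 6 groups. The highest levels of most of them, in group mean, were found at 4 days post injury (dpi), but the difference from sham passed the test across all genes for none of the 9.

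Type I interferons bind a receptor on the cell surface whose kinases, JAK1 and TYK2, phosphorylate STAT proteins, among them STAT2. Phosphorylated STAT2 and IRF9 are parts of a complex (ISGF3) that enters the nucleus and binds a short element, the interferon-stimulated response element (ISRE), in front of its target genes. The targets encode antiviral proteins and also STAT2, IRF9 and IRF7, so the pathway feeds back on itself. In the central nervous system, microglia and astrocytes are known to respond to interferon, and expression of these genes is a known feature of some activated microglia.

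All animals were adult female C57BL/6 mice. Stroke animals had received a photothrombotic lesion of the right sensorimotor cortex, in which a light-sensitive dye injected into the animal is activated by illumination of the skull and clots the vessels under it. Sham animals had the operation without illumination. The tissue was the intermediate layers of the cervical cord at C5/C6, on the side that had lost its corticospinal input, so every measurement was taken far from the lesion and in tissue of mixed cell types. The groups were sham (5 animals), 4 dpi (4 animals), and 7, 14, 28 and 42 dpi (5 animals each). The labels name a further 4 dpi animal, which the study left out of its analysis as an outlier and which was not analysed here.

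Values are normalized CPM (reads of a gene relative to the size of its library) made by the authors and rounded to steps of 0.1, written below as normalized values. They are not divided by gene length, so levels are compared between animals and not between genes. Read totals of the libraries are unknown. Over the series, the sums of the columns ran from 714597 to 2256910 while their medians stayed between 10.2 and 11.2. A single ribosomal RNA gene, Rn18s-rs5, had values of 30321 to 52929 in sham animals and 44755 to 779160 at 28 dpi. All 8 Hox genes listed for the cervical cord and all 10 neuron markers were in the table. The mean normalized value of the 9 genes over all animals ran from 0.931 (Bst2) to 10.6 (Stat2). Of all genes, 49.1% had a mean below that of Stat2, and 7.54% had a mean below that of Bst2. The rounding step is therefore a sizeable part of the lowest values of Bst2, Isg15 and Irf7.

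ISGF3 binds its element in front of its target genes, and its binding was not measured here. Of the 9 genes, the stretches with a match to the element before the start are shown beside the expression values. A window from 250 bases before to 50 bases after the start was available for all 9 genes in RefSeq (GRCm38.p6, the build of the table). The core of the ISRE, spelled GAAA, any 2 bases and GAAA again, was searched on both strands. It was found in the windows of 6 of the 9 genes, Stat2, Ifit1, Ifit3, Isg15, Bst2 and Ifitm3. The same core was found for 3.72% of the 11812 genes of the table that have a window, and in 3.44% of all 32851 windows of that length. Capitals mark the matches; where the match lies on the opposite strand it reads TTTC, 2 bases and TTTC. For Ifit3, Isg15 and Bst2 the whole 250 bases before the start are given, and for Ifit1 and Stat2 30 bases around each match, all 5′ to 3′ along the gene.
Ifit3, chr19:34583279-34583528, plus strand: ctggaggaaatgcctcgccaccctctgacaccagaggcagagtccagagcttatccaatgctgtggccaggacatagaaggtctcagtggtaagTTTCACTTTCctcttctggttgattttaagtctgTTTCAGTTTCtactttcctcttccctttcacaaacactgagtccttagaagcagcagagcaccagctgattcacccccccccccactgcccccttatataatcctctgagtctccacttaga
Isg15, chr4:156200819-156201068, minus strand: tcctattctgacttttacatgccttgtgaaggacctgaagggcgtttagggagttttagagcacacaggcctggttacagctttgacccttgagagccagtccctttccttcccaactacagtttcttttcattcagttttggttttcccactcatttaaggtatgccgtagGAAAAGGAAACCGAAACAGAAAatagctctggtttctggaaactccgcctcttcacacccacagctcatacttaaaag
Bst2, chr8:71537473-71537722, minus strand: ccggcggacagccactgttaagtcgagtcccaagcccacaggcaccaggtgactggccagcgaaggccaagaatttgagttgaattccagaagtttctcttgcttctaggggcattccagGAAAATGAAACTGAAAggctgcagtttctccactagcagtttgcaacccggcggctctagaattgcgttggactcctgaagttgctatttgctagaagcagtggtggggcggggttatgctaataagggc
Ifit1, chr19:34640775-34640804, plus strand: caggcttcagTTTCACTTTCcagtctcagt
Ifit1, chr19:34640794-34640823, plus strand: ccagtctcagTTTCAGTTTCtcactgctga
Stat2, chr10:128270266-128270295, plus strand: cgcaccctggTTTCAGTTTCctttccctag

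Ifit3 held 2 separate matches, which began 156 and 122 bases before the start, and Ifit1 held 2, at 104 and 85 bases. In both genes the 2 matches were the same pair of words, TTTCACTTTC and then TTTCAGTTTC, the second of which was also the match in Stat2. The 3 matches of Isg15 overlap, beginning 78, 72 and 66 bases before the start, and so do the 2 of Bst2, at 130 and 124 bases. In Ifitm3, 2 matches lay just inside the transcript, from its bases 3 and 20. The windows of Irf9 (2 windows), Irf7 and Oasl2 held none of these letters, which says only that this spelling is not within these windows. A second element, GAS (TTCNNNGAA), which binds STAT dimers downstream of interferon-gamma, was found in Bst2, where it overlaps the first ISRE match, and in Ifitm3, where it also overlaps a match, against 8.29% of the genes with a window.

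In the table's coordinates (GRCm38), all 9 are protein-coding genes: Irf9 at chr14:55603571-55610030 and Stat2 at chr10:128270576-128292849 on the plus strand, Irf7 at chr7:141262706-141266481 and Ifitm3 at chr7:141009586-141010770 on the minus strand, Ifit1 at chr19:34640871-34650009 and Ifit3 at chr19:34583531-34588731 on the plus strand, Isg15 at chr4:156199424-156200818 on the minus strand, Oasl2 at chr5:114896936-114912234 on the plus strand, and Bst2 at chr8:71534255-71537456 on the minus strand. Some of them share sequence with other genes, which matters for how reads are divided. Of all words of 31 bases in the annotated transcripts of Ifit3, 61.8% also occur in those of its neighbour Ifit3b. For Ifitm3, 20.5% of the words occur in other genes, Ifitm1 and Ifitm2 among them, for Isg15 13.1% and for Ifit1 10.8%, most of the last in Ifit1bl1 and Ifit1bl2. No word of Bst2 was shared. The libraries did not mark strand, and exons of Irf7 overlap those of Phrf1 on the opposite strand over 45 bases, while exons of Irf9 overlap those of Rnf31 on the same strand over 123 bases.

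**Figure D1:**
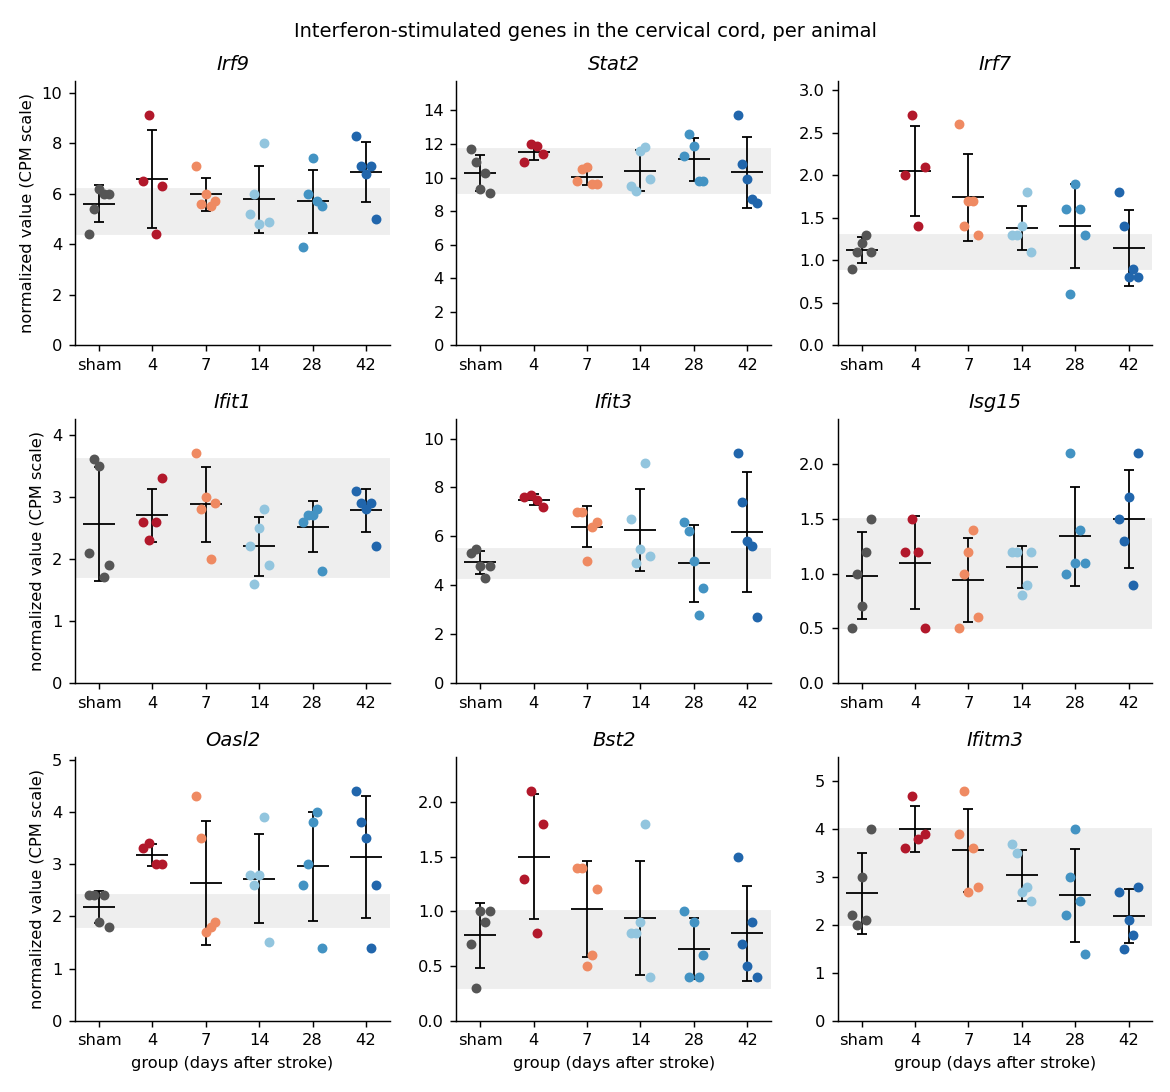
Normalized value (CPM scale, linear axis from 0) of each of the 9 genes in every animal, by group (sham and days after stroke). Each point is 1 animal, the horizontal line is the group mean, the bar is ± 1 SD, and the grey band is the range of the 5 sham animals. For Irf7, Ifit3 and Oasl2 all 4 animals at 4 dpi lie above the band, and from 7 dpi on every group has animals within or below it.

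The comparison with sham at 4 dpi asks which genes had changed at the earliest time point. In mean log2 value, all 9 genes were higher at 4 dpi than in sham, with a median log2 fold change of 0.46 and a range from 0.11 to 0.64, where the median over all genes was 0.01 and 51.9% of all genes were higher. Fold changes are on the log2(value + 0.5) scale, which understates differences of low genes. None of the 9 passed the test (limma, Benjamini-Hochberg adjusted p under 0.05 over all 16995 genes), as 0.106% of all genes did. Irf7, Ifitm3, Ifit3 and Bst2 had an unadjusted p under 0.05, and 2.78% of all genes were higher at that level. In 3 of the 9, Irf7, Ifit3 and Oasl2, the lowest animal at 4 dpi lay above the highest sham animal, as in 1.09% of all genes.

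Irf9 and Stat2 encode subunits of ISGF3. Irf9 had normalized values of 4.4, 5.4, 6.2, 6.0 and 6.0 in the sham animals and of 6.5, 9.1, 4.4 and 6.3 at 4 dpi. The animal with 9.1 was the highest of all 29 and another 4 dpi animal was level with the lowest sham animal, so the groups overlapped (log2 fold change 0.18, SE 0.17). Stat2 lay between 9.1 and 11.7 in sham and between 10.9 and 12 at 4 dpi. Its 4 values at 4 dpi were close together, at the upper end of the sham range and slightly beyond it (log2 fold change 0.17, 95% confidence interval −0.06 to 0.39).

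Irf7, the factor that drives the later wave of type I interferon genes, had normalized values of 0.9, 1.1, 1.2, 1.3 and 1.1 in sham and 2.0, 2.7, 1.4 and 2.1 at 4 dpi. All 4 stroke animals were above every sham animal, the lowest of them by a single rounding step. The means were 1.12 ± 0.148 (SD, n = 5) and 2.05 ± 0.532 (SD, n = 4), and the log2 fold change was 0.64 (SE 0.21, limma adjusted p = 0.454). At 7 dpi the values were 2.6, 1.4, 1.7, 1.7 and 1.3. Of these, 4 were above the sham range and the fifth was level with its top, and the log2 fold change was 0.45 (SE 0.20, limma adjusted p = 0.84). From 14 dpi on the group means were 1.38, 1.40 and 1.14, with log2 fold changes of 0.21, 0.19 and −0.02.

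Ifit1 and Ifit3 encode tetratricopeptide proteins that bind viral RNA or regulate the response to it. Ifit3 separated the 4 dpi animals from sham most cleanly. Its normalized values were 5.3, 5.5, 4.8, 4.3 and 4.8 in sham and 7.6, 7.7, 7.5 and 7.2 at 4 dpi, with means of 4.94 ± 0.472 (SD, n = 5) and 7.50 ± 0.216 (SD, n = 4). The whole 4 dpi group lay in a narrow band above sham (log2 fold change 0.56, SE 0.22, limma adjusted p = 0.722). The SE of the fit is larger than those 2 groups alone would give, since it carries the spread of all 6 groups. With only sham and 4 dpi in the fit, the adjusted p of Ifit3 was 0.084, the lowest of any setting, and still did not pass.

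At 7 dpi, Ifit3 values of 7.0, 7.0, 5.0, 6.4 and 6.6 gave a log2 fold change of 0.34 (SE 0.21), with 4 of 5 animals above sham. The later groups were much wider. At 14 dpi the values were 6.7, 4.9, 5.5, 9.0 and 5.2, at 28 dpi 6.6, 6.2, 5.0, 2.8 and 3.9, and at 42 dpi 9.4, 7.4, 5.8, 5.6 and 2.7. The highest and the lowest values of Ifit3 in the whole series were thus both in the 42 dpi group, and the SD was 0.216 at 4 dpi and 2.47 at 42 dpi.

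Because Ifit3 and Ifit3b share most of their words, they were also added together, an alternative chosen after the values were seen. The sum was 7.4 to 9.7 in sham and 11.9 to 12.8 at 4 dpi, so the groups again did not overlap. Ifit3b alone was above the sham range in 3 of 4 animals at 4 dpi (log2 fold change 0.40, SE 0.16, limma adjusted p = 0.763). Ifit1 did not separate: it lay between 1.7 and 3.6 in sham and between 2.3 and 3.3 at 4 dpi, with a log2 fold change of 0.11 (SE 0.18), and over the 5 time points its log2 fold change ran from −0.15 to 0.17. Adding Ifit1bl1 and Ifit1bl2 gave a range of 5.4 to 9.1 in sham and 6.4 to 8.9 at 4 dpi.

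Isg15 encodes a ubiquitin-like protein that is attached to other proteins, and Oasl2 a relative of the 2′-5′-oligoadenylate synthetases that sense double-stranded RNA. Oasl2 had normalized values of 2.4, 2.4, 1.9, 2.4 and 1.8 in sham and 3.3, 3.4, 3.0 and 3.0 at 4 dpi. The lowest 4 dpi animal was 0.6 above the highest sham animal, yet the log2 fold change of 0.46 (SE 0.26, 95% confidence interval −0.07 to 0.99) did not pass the test. The later groups ranged from 1.4 to 4.4. At 7 dpi the group held both: 2 animals at 4.3 and 3.5, and 3 at 1.7, 1.8 and 1.9, within or below the sham range. Isg15, whose window held 3 overlapping ISRE matches, had normalized values of 0.5 to 1.5 in sham and 0.5 to 1.5 at 4 dpi, the same range (log2 fold change 0.11). Its highest mean was at 42 dpi, at 1.5 ± 0.447 (SD, n = 5) against 0.980 ± 0.396 (SD, n = 5) in sham, with a log2 fold change of 0.45 (SE 0.22, limma adjusted p = 0.338).

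Bst2 (tetherin, which holds budding virus at the cell surface) and Ifitm3 (which blocks virus entry through endosomes) are membrane proteins. Bst2 had normalized values of 0.7, 0.3, 1.0, 0.9 and 1.0 in sham and 1.3, 2.1, 0.8 and 1.8 at 4 dpi. Of these, 3 of the 4 were above sham and 1 was within its range (log2 fold change 0.63, SE 0.27, limma adjusted p = 0.841). Ifitm3 had 2.2, 2.0, 3.0, 2.1 and 4.0 in sham and 3.6, 4.7, 3.8 and 3.9 at 4 dpi. A single sham animal, at 4.0, reached into the 4 dpi group, and the other 4 lay below it (log2 fold change 0.54, SE 0.21, limma adjusted p = 0.676). Added to Ifitm2, an alternative also chosen after the values were seen, the groups did not overlap, at 3.0 to 4.9 in sham and 5.1 to 5.9 at 4 dpi. Only 6.02% of the words of Ifitm3 occur in Ifitm2, and Ifitm2 alone was above the sham range in 0 of 4 animals at 4 dpi.

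The animals at 4 dpi differed in how many of the genes were high. The number of the 9 genes above the range of the sham animals was 5, 7, 4 and 5, and none was below it, while 16.3% to 19.2% of all genes were above that range in these animals. At 7 dpi the numbers were 6, 5, 1, 2 and 2, and at 14 dpi 2, 1, 2, 6 and 0, with 15.4% to 16.9% and 14.1% to 20.6% of all genes above the range. At 28 dpi they were 3, 4, 4, 2 and 0, where 19.5% to 31.5% of all genes were above it, and at 42 dpi 6, 4, 4, 2 and 2, beside 17.3% to 25.1%. Each later group thus held animals with 4 or more of the 9 genes above sham and animals with 2 or fewer, and at 28 dpi the shares of the 9 lay nearer to those of all genes than at 4 dpi. The most genes below the sham range in 1 animal were 3, in A4-4 of 28 dpi, where 29.3% of all genes were below it, and in A1-4 and A3-4 of 42 dpi, with 18.6% and 21.2%.

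**Figure D2:**
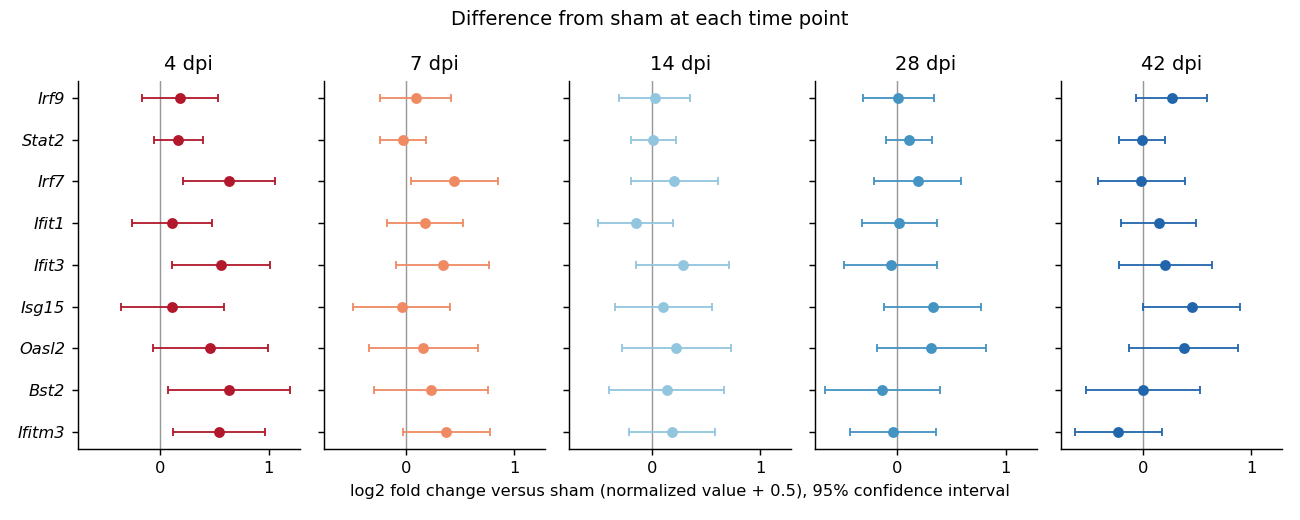
Log2 fold change of each of the 9 genes versus sham, on the log2(value + 0.5) scale, at 5 time points. Points are estimates of the limma fit over all 6 groups (4 animals at 4 dpi, 5 in every other group) and bars are 95% confidence intervals without correction for multiple tests. All 9 points lie above 0 at 4 dpi, and at 28 dpi their median is 0.02.

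The later comparisons with sham gave smaller differences. None of the 9 genes passed the test at any of them, against 0.0294%, 0.00588%, 24.9% and 0.0235% of all genes (7, 14, 28 and 42 dpi in turn). Of these times, 28 dpi stands apart: 4230 genes of the table passed there and none of the 9, and with Rn18s-rs5 as a covariate 0 genes of the table passed. The median log2 fold change of the 9 genes was 0.17, 0.14, 0.02 and 0.14 at 7, 14, 28 and 42 dpi, and 7, 8, 6 and 5 of them were higher than in sham (at 42 dpi Bst2 was equal to it), as were 49.8%, 47.8%, 49.3% and 48.4% of all genes. No gene of the 9 lay above all sham animals in every animal of a group at these times, as 0.388%, 1.11%, 6.15% and 2.21% of all genes did, and the number at an unadjusted p under 0.05 was 1 (Irf7), 0, 0 and 1 (Isg15), beside 5.84%, 11.6%, 38.5% and 14.8% of all genes. In the mean of the 5 stroke groups against sham all 9 genes were higher, by a median of 0.17, with 49.1% of all genes higher. Again 0 passed limma's test, none had an unadjusted p under 0.05, and of all genes 0.00% passed and 8.63% had such a p. The directions from 14 dpi on depended on the scaling: with every library at the same sum, the median of the 9 genes was −0.23, −0.62 and −0.31 at 14, 28 and 42 dpi and −0.075 in the mean of the stroke groups, where 7 of the 9 turned lower, while the median of all genes moved to −0.48, −0.72, −0.52 and −0.36. All these comparisons share the 5 sham animals. Without 1 animal, the median of the 9 genes ran from 0.091 to 0.28 at 7 dpi and from 0.10 to 0.25 at 14 dpi. It ran from −0.027 to 0.13 at 28 dpi and from 0.042 to 0.24 at 42 dpi.

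A test over all 6 groups asks whether a gene differed anywhere. Ifitm3 was the 1 gene of the 9 that passed (limma F test, F = 3.92, adjusted p = 0.029), against 31.6% of all genes. Irf7 was next (adjusted p = 0.0677). The group mean of Ifitm3 was 2.66 in sham, and 4.00, 3.56, 3.04, 2.62 and 2.18 in the groups from 4 to 42 dpi in order of time. The means descend with every later time point, and all 4 animals at 4 dpi were above all 5 at 42 dpi, as in 1.81% of all genes. The call was lost without animal A10-4 of 4 dpi (adjusted p = 0.0661), A1-2 of 42 dpi (0.0577) or A1-4 of 42 dpi (0.0557), and with Rn18s-rs5 as a covariate (0.103).

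Of the 9 genes, 6 had their highest group mean at 4 dpi: Stat2, Irf7, Ifit3, Oasl2, Bst2 and Ifitm3. Irf9 and Isg15 were highest at 42 dpi and Ifit1 at 7 dpi. The lowest mean was in sham for Irf9, Irf7 and Oasl2, at 7 dpi for Stat2 and Isg15, at 14 dpi for Ifit1, at 28 dpi for Ifit3 and Bst2, and at 42 dpi for Ifitm3. Ordered by mean, neighbouring groups were mostly closer than their spread: of 45 gaps between neighbours, 5 for each gene, only 1 was larger than both SDs. That gap belonged to Ifit3 and lay between 4 dpi and the next highest group, 7 dpi.

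Later groups were also compared with 4 dpi, a comparison added after the values were seen and so no independent evidence of a direction. At 28 dpi, 3 of the 9 genes were lower than at 4 dpi past the threshold of limma's test, as were 11.7% of all genes. These were Ifitm3 (log2 fold change −0.58, adjusted p = 0.046), Bst2 (−0.77, adjusted p = 0.046) and Ifit3 (−0.62, adjusted p = 0.0462). All 3 lay close to the threshold, and without 1 of 7 of the 9 animals compared, 1 or none of them passed: 1 without A9-2 of 4 dpi, and 0 without A10-1, A10-4 or A9-4 of 4 dpi or A3-3, A4-3 or A4-4 of 28 dpi. None passed with Rn18s-rs5 as a covariate, with no trend, with median centring or with only the 2 groups compared. With equal sums 8 of the 9 passed, beside 65.7% of all genes. At 7, 14 and 42 dpi none of the 9 passed against 4 dpi, where 0.00%, 0.0177% and 0.165% of all genes did. The number of the 9 at an unadjusted p under 0.05 was 0, 1 and 3 there, beside 2.91%, 9.94% and 12.2% of all genes.

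Of the genes around the 9 in the pathway, those that encode the interferons themselves could not be followed, since none of the 12 listed was in the table. Of the receptors and kinases, all 9 were measured. The 3 with the highest level were Jak1 (sham mean 146.7), Jak2 (36.8) and Ifnar1 (24.3), with log2 fold changes of 0.01, −0.23 and 0.02 at 4 dpi, and none of the 9 passed at that time. At 28 dpi, Ifngr2, a chain of the interferon-gamma receptor, was lower (log2 fold change −0.26, limma adjusted p = 0.0311), where 13.0% of all genes fell. Of 7 STAT and IRF factors in the table, none passed at 4 dpi, and the largest difference was that of Irf8, a factor of microglia and macrophages, which was singled out after its values were seen (log2 fold change 0.96, limma adjusted p = 0.054). Irf2, a repressor of interferon genes, rose at 28 dpi (0.34, limma adjusted p = 0.0151), where 11.9% of all genes rose. Of 13 sensors and adaptors, none passed at 4 dpi and 2 fell at 28 dpi, where 13.0% of all genes fell, the kinase Tbk1 (log2 fold change −0.31, limma adjusted p = 0.00139) and the RNA sensor Tlr7 (−0.43, limma adjusted p = 0.0471). The call of Tlr7 was lost without any 1 of the 10 animals compared except A12-3 of sham and A4-1 of 28 dpi (limma adjusted p up to 0.132), that of Ifngr2 without A12-1, A12-2 or A12-3 of sham or A3-3 or A4-3 of 28 dpi (up to 0.116), and that of Irf2 without A12-1 of sham (0.068). With Rn18s-rs5 as a covariate none of the 4 passed. With only the 2 groups compared Ifngr2, Irf2 and Tlr7 did not pass, nor did Ifngr2 and Tlr7 with median centring. Ifngr2 also did not pass with quantile normalization, nor Tlr7 with a pseudocount of 1. Irf2 did not pass with equal sums, where its log2 fold change turned to −0.41.

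Other antiviral effectors formed the largest list, with 50 of 56 genes in the table. At 4 dpi, 42 of the 50 were higher than in sham, beside 51.9% of all genes. The median log2 fold change of the 50 was 0.20, and 1 passed the test, beside 0.106% of all genes. This was Lgals3bp, a secreted glycoprotein that binds galectins, which rose from 6.66 ± 0.669 (SD, n = 5) in sham to 12.5 ± 1.03 (SD, n = 4), with a log2 fold change of 0.87 (SE 0.16, limma adjusted p = 0.0189). All 4 animals were above the sham range, as in 1.09% of all genes. The call was lost without any 1 of 5 animals, A11-1 or A11-4 of sham and A10-1, A10-4 or A9-4 of 4 dpi (limma adjusted p up to 0.124), and with equal sums of the libraries (0.831). At 28 dpi, where none of the 9 genes passed, 11 of these 50 rose and none fell, beside 11.9% of all genes that rose and 13.0% that fell.

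The 4 with the lowest adjusted p at 28 dpi were Trim25, a ubiquitin ligase that activates RIG-I (log2 fold change 0.64, limma adjusted p = 0.0016), Eif2ak2, which encodes the RNA-activated kinase PKR (0.43, adjusted p = 0.00238), Samhd1, which degrades deoxynucleotides (0.35, adjusted p = 0.00701), and Sp100, a nuclear body protein (0.55, adjusted p = 0.0113). The others, named here after their values were seen, were Dtx3l, Ifi203, Oas1b, Uba7, Ifi204, Parp14 and Herc6. Trim25 was 3.6 to 4.6 in sham and 5.0 to 8.2 at 28 dpi. Eif2ak2 was 22.7 to 26.0 in sham and 28.2 to 42.8 at 28 dpi. Neither overlapped, and 6.15% of all genes also lay wholly above sham there. Both were picked by their adjusted p, so the gap is no separate evidence. The count depended on the scaling of the libraries: with Rn18s-rs5 as a covariate 0 passed, as in the whole table, with quantile normalization 6 rose and 2 fell, and when every library was scaled to the same sum 0 rose and 21 fell, where 66.0% of all genes fell and their median was −0.72. Without animal A3-3 of 28 dpi 6 rose, without A12-3 of sham 7.

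Of the genes of the interferon-gamma response and antigen processing, 22 of 28 were measured. At 4 dpi 18 were higher, by a median of 0.20, and none passed, beside 51.9% and 0.106% of all genes. At 28 dpi 3 of the 22 rose and 1 fell, beside 11.9% and 13.0% of all genes. At 28 dpi Nlrc5, a transactivator of MHC class I genes, rose (log2 fold change 0.76, limma adjusted p = 0.00839), as did the guanylate-binding proteins Gbp4 (0.55, adjusted p = 0.0239) and Gbp5 (0.46, adjusted p = 0.0364), while the proteasome activator subunit Psme2 fell (−0.49, adjusted p = 0.0368). Of 9 negative regulators, none passed at 4 dpi. At 28 dpi 1 fell, the phosphatase Ptpn2 (−0.35, limma adjusted p = 0.0387), beside 13.0% of all genes that fell. All of these calls at 28 dpi were lost with Rn18s-rs5 as a covariate. Those of Gbp4, Psme2 and Ptpn2 were also lost with only the 2 groups compared, and those of Gbp4 and Gbp5 with quantile normalization. That of Ptpn2 was lost with median centring. With equal sums those of Nlrc5, Gbp4 and Gbp5 were lost, and Gbp4 and Gbp5 turned lower (−0.13 and −0.18). Without A3-3 of 28 dpi or A12-3 of sham, the calls of Gbp4, Gbp5, Psme2 and Ptpn2 were lost (limma adjusted p up to 0.116, 0.0881, 0.108 and 0.133 in turn). Those of Gbp5, Psme2 and Ptpn2 were also lost without A11-4 or A12-1 of sham or A4-3 of 28 dpi, those of Psme2 (up to 0.149) and Ptpn2 without A4-4, and that of Gbp5 without A12-2 of sham or A4-1 of 28 dpi.

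**Figure D3:**
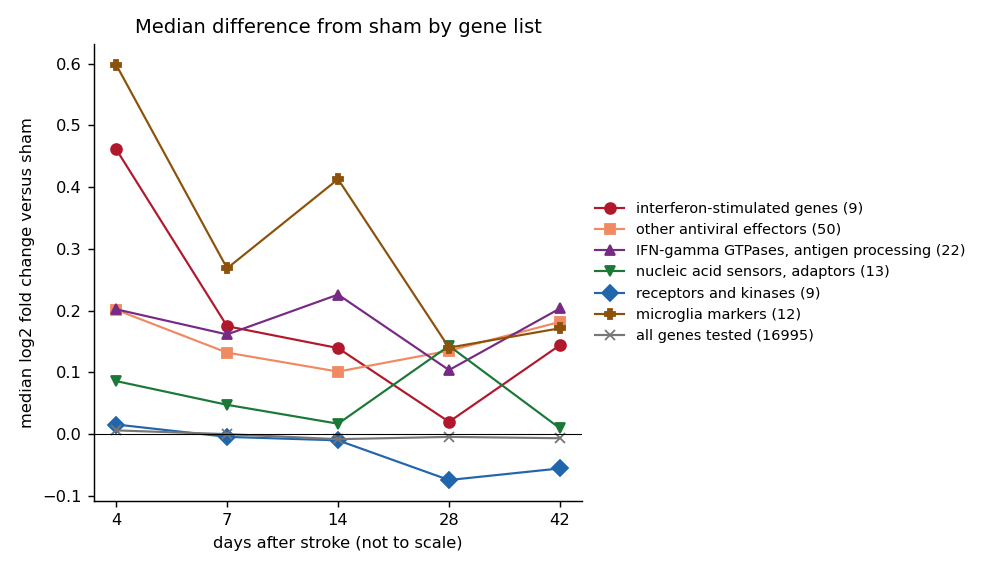
Median log2 fold change versus sham over the genes of each list (number measured in brackets) at 5 time points, on the log2(value + 0.5) scale, with the time axis not to scale. The 9 interferon-stimulated genes start at 0.46 and the microglia markers at 0.60 at 4 dpi, above the other lists, while the median of all 16995 genes stays at 0.01 or below.

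Microglia markers moved in the same direction as the 9 genes at 4 dpi. All 12 of them were higher than in sham, by a median of 0.60 on the log2 scale, beside 51.9% of all genes. Csf1r and C1qc rose (log2 fold changes 0.74 and 1.09, limma adjusted p = 0.00915 and 0.0478), as did 0.0883% of all genes. The call of Csf1r was lost without A10-4 or without A9-4 of 4 dpi, that of C1qc without any 1 of the 9 animals except A9-2 (limma adjusted p up to 0.0986 and 0.436), and without A9-2 6 markers passed. With equal sums neither passed, and the call of C1qc was also lost with a pseudocount of 0.1, with no trend and with only the 2 groups compared (limma adjusted p up to 0.197). The summed normalized value of the 12 markers was 138.5 to 153.1 in sham, 172.6 to 286.7 at 4 dpi, 140.6 to 239.1 a week after stroke, 161.3 to 212.6 at 14 dpi, 133.6 to 184.4 at 28 dpi, and in the 42 dpi group 149.5 to 174.6. At 14 dpi the markers were still higher by a median of 0.41, and the 9 genes by 0.14. In bulk tissue more cells of a type and more RNA per cell cannot be told apart, and the part of microglia in the values of the 9 genes was not tested.

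At 4 dpi 51.9% of all genes were higher than in sham and 0.106% passed. Astrocyte and meninges markers were each higher in 7 of 8 there, by medians of 0.12 and 0.25 on the log2 scale. Of these, 1 passed, Gfap, the intermediate filament of astrocytes, with a larger log2 fold change than any microglia marker (1.18, SE 0.25, limma adjusted p = 0.048). Gfap had normalized values of 116.9 to 303.3 in sham and 277.5 to 584.3 at 4 dpi, so the groups overlapped. Its call was lost without A11-4, A12-1 or A12-3 of sham or A10-1, A10-4 or A9-4 of 4 dpi (limma adjusted p up to 0.477), and in 5 of 10 other settings. The summed value of the 8 astrocyte markers was 3412 to 3845 in sham and 3633 to 4182 at 4 dpi, and that of the 8 meninges markers 38.5 to 45.6 and 40.9 to 53.4. Oligodendrocyte markers were lower in 7 of 8 at 4 dpi (median −0.22, none passed) and in 8 of 8 at 28 dpi, by a median of −0.38, where 5 fell, among them Cldn11, Cnp, Mobp and Mog. Their sum was 6369 to 9454 in sham and 4569 to 6718 at 28 dpi. At that time 11.9% of all genes rose and 13.0% fell. Of the astrocyte markers, 2 of 8 rose and 3 fell at 28 dpi, and without A12-1 of sham or without A3-3 or A4-4 of 28 dpi 1 rose and 1 fell. Of the other lists at 28 dpi, 2 of 12 microglia markers, 1 of 6 blood leukocyte markers and 1 of 8 meninges markers rose. Of 12 endothelium and mural markers 2 rose and 1 fell, and of 10 neuron markers 1 rose and 1 fell. Of 5 blood cell markers 1 rose, and none of the 8 Hox genes passed. With Rn18s-rs5 as a covariate no marker passed there, as no gene of the table did. The part of these cell types in the values of the 9 genes and of the pathway genes was not tested. Of 12 blood leukocyte markers, 6 were in the table, with a sum of 4.3 to 6.9 in sham, 3.3 to 5.4 at 4 dpi and 5.6 to 8.1 at 28 dpi. S100a8, S100a9, Cd3e, Plac8 and Nkg7 were among those with no row.

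Within groups, most pairs of the 9 genes were positively correlated from animal to animal, several of them only weakly. After the mean of its group was subtracted from each log2 value, 30 of the 36 pairs of genes had a positive Pearson's r over the 29 animals, with a median of 0.275. The highest was 0.689, between Stat2 and Ifit3, followed by 0.590 for Irf7 and Bst2. All 6 negative pairs involved Isg15, whose r was lowest with Ifit1, at −0.463, and all 28 pairs of the other 8 genes were positive. The r of Ifitm3 was only 0.014 with Ifit1, 0.018 with Stat2, 0.032 with Ifit3 and 0.094 with Irf7. The animals share library and normalization between genes, and the r of each gene with Rn18s-rs5 ran from −0.267 for Oasl2 to 0.0505 for Isg15. The share of positive pairs among all genes was not computed, so these values are only a description of the 29 animals.

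**Figure D4:**
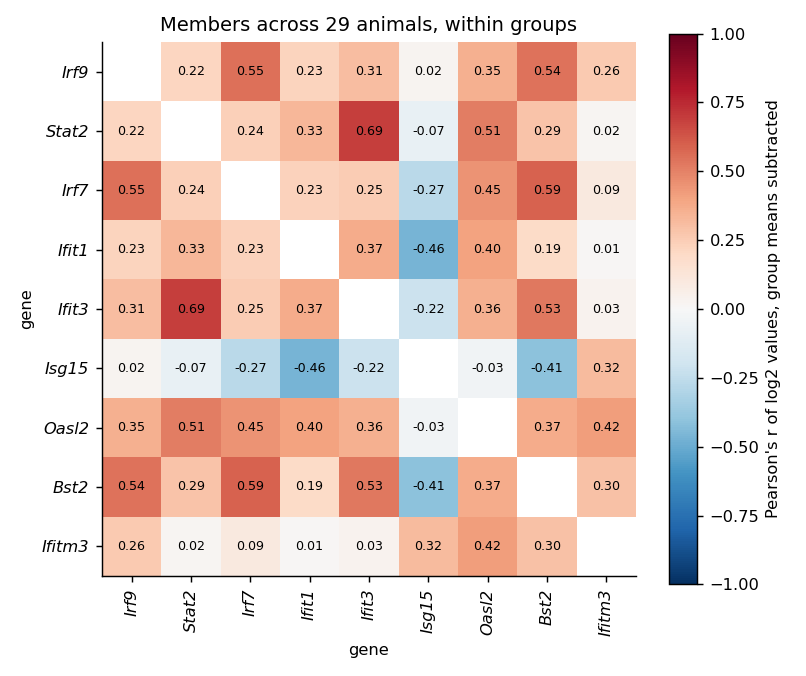
Pearson's r between each pair of the 9 genes over 29 animals, from log2(value + 0.5) after the group mean was subtracted, with the colour scale from −1 to 1. The row of Isg15 is blue or pale except for Ifitm3, and the pairs of the other 8 genes are all positive.

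The genes most like the 9 were sought among the 15478 other genes with a mean value of at least 1, by r with the mean of the 9 standardized values within groups. The 10 highest were Snx11 (r = 0.734), Spice1, Ncoa5, Ddx39, Cgrrf1, Tepsin, Adam8, Igtp (0.664), Lgals9 and Inpp5d (0.654). Of the listed pathway genes Igtp, an interferon-inducible GTPase, came first, at rank 8, and the genes above it are in none of the lists. Of the 100 listed pathway genes that were ranked, 9 were among the first 100, and their median r was 0.268, beside 0.0364 for all ranked genes. The 3 lowest were Lct (−0.712), Fam171b (−0.741) and Cacul1 (−0.753). Without subtracting the group means, 3 of the 10 were again in the first 10 (Igtp, Spice1 and Lgals9), joined by genes that included Lgals3bp, Trim30a, Cyth4, Unc93b1 and Ly6e. Ncoa5 and Ddx39 were then at ranks 1192 and 1268.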

How the data were processed

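RNA of 29 mice was measured by RNA sequencing of ribosomal RNA-depleted, unstranded libraries (single-end reads). The authors estimated transcript levels with SALMON on the mouse transcriptome (mm10), summed them per gene with Tximport, removed low genes and normalized with edgeR (version 3.14.0 in the submitters' processing notes, with R 3.4.1). The deposited values are therefore a score: normalized CPM rounded to 0.1, with sums that differ between animals. Raw counts and depths are unknown, so no count test or counting interval is given. The deposited fold changes and p-values of the authors' own comparisons were not used.

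Groups were taken from the labels. Of 30 labelled animals, 1 at 4 dpi was not analysed. A linear model of log2(value + 0.5) with 6 groups was fitted to all 16995 genes with limma 3.58.1 (R 4.3.3, moderated variance with a mean trend, two-sided), tested on simulated data, and p-values were adjusted over all genes by the method of Benjamini and Hochberg with a threshold of 0.05. Labels do not pair animals across groups, though the unit A3 in the animal label holds animals of both 28 and 42 dpi. The members and gene lists were chosen with earlier results of these data known. Named were all members, for each list the genes that passed, up to 4 by adjusted p, and the 3 of highest mean, the 10 genes most like the members and the 3 least like them, except that some genes are not reported here. Positions were compared with GENCODE M21, shared words of 31 bases with its transcripts, and promoter windows are from RefSeq (GRCm38.p6). Alternatives were other pseudocounts (1 and 0.1), a minimum mean of 1, no trend, quantile normalization, median centring, equal sums, Rn18s-rs5 as a covariate, the unit in the animal label as a random block, only the groups compared, and leaving out each animal. The comparisons with 4 dpi and the sums with genes that share words were added after the values were seen.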

Additional observations from a re-analysis of the deposited data

Results flagged for a closer look

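Among the 54 combinations of 9 genes and 6 groups, 1 animal stood apart from its group: for Ifit1 at 28 dpi, animal A4-4 had a normalized value of 1.8, and the other 4 lay between 2.6 and 2.8. Chance alone sets about 1 group in 20 apart in this way. The effect of stroke at 28 dpi differed from that at 4 dpi in limma's test of the difference for Ifitm3 (log2 difference −0.58), Bst2 (−0.77) and Ifit3 (−0.62). That comparison was chosen after the values were seen.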

How the results depend on the processing

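No member passed at 4, 7, 14 or 42 dpi or in the mean of the stroke groups under any of the alternatives run, and at 28 dpi 5 passed with equal sums, all lower, as were 66.0% of all genes. In the test over the 6 groups, where 1 passed, 2 passed with quantile normalization or a random block by label unit (29.8% and 36.6% of all genes), 7 with equal sums (66.6%) and 0 with Rn18s-rs5 as a covariate (20.5%), and between 0 and 2 when an animal was left out. At 28 dpi versus 4 dpi, where 3 passed, 0 did with no trend, with median centring, with the covariate and with only the 2 groups (17.6%, 18.9%, 0.00% and 2.02% of all genes), 8 did with equal sums (65.7%), and 0 to 3 did without 1 animal. At 42 dpi versus 4 dpi 2 passed with equal sums (1.29%). Equal sums moved the median of all genes to −0.48 at 14 dpi, −0.72 at 28 dpi, −0.52 at 42 dpi and −0.36 in the mean. Under equal sums these log2 fold changes turned. At 14 dpi they became −0.44 (Irf9), −0.48 (Stat2), −0.13 (Irf7), −0.18 (Ifit3), −0.23 (Isg15), −0.16 (Oasl2), −0.10 (Bst2) and −0.24 (Ifitm3), at 28 dpi −0.70 (Irf9), −0.64 (Stat2), −0.31 (Irf7), −0.62 (Ifit1), −0.21 (Isg15) and −0.32 (Oasl2), at 42 dpi −0.24 (Irf9), −0.31 (Ifit1), −0.29 (Ifit3) and −0.083 (Oasl2), and in the mean −0.23 (Irf9), −0.31 (Stat2), −0.25 (Ifit1), −0.075 (Ifit3), −0.065 (Isg15), −0.014 (Bst2) and −0.14 (Ifitm3). Of the pathway genes at 28 dpi, Trim25 (−0.072), Eif2ak2 (−0.35), Samhd1 (−0.40), Sp100 (−0.12), Irf2 (−0.41), Gbp4 (−0.13) and Gbp5 (−0.18) turned too. With the covariate the sign turned for Bst2 (0.042) and Ifit3 (0.093) at 28 dpi and Irf7 (0.11) and Stat2 (0.073) at 42 dpi, with quantile normalization for Ifit1 (−0.14) and Irf9 (−0.016) at 28 dpi and Stat2 (−0.0042) at 14 dpi, and for Stat2 at 42 dpi with the random block (0.0045) and median centring (0.00099). Leaving out 1 animal turned only small fold changes, with these ranges: at 4 dpi Ifit1 −0.00030 to 0.22 and Isg15 −0.021 to 0.32, at 7 dpi Oasl2 −0.014 to 0.27, Isg15 −0.17 to 0.081 and Stat2 −0.068 to 0.019, at 14 dpi Irf9 −0.087 to 0.083, Isg15 −0.021 to 0.23, Stat2 −0.028 to 0.064 and Bst2 −0.047 to 0.29, at 28 dpi Irf9 −0.086 to 0.13, Ifitm3 −0.18 to 0.13, Ifit1 −0.087 to 0.14 and Ifit3 −0.17 to 0.10, at 42 dpi Irf7 −0.15 to 0.057, Stat2 −0.11 to 0.055 and Bst2, equal to sham with all animals, −0.17 to 0.12, and in the mean Ifit1 −0.047 to 0.18. The cause was not tested. At 4 dpi all 9 members were higher than in sham under every alternative that kept all animals, except that the minimum mean of 1 removed Bst2. Depth is unknown, and a rounding step of 0.1 limits the values of Bst2, Isg15 and Irf7.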
